A study of Mus musculus with 78 samples.

Results

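The genes described here are 37 macrophage and monocyte genes, measured in mouse flank tissue after adenoviral delivery of VEGF-A164 with or without antibody treatment. They were taken from a fixed list of gene symbols, which was chosen with earlier results of these data known. Each symbol was matched to the probe sets that the platform annotation gives to that gene alone, and the brightest of these stood for the gene. All 37 symbols matched, through 69 probe sets. All 37 also passed the filter on low values, among 14718 genes tested.

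Macrophages are tissue phagocytes that arise from embryonic precursors or from blood monocytes, and they depend on signalling through the receptor Csf1r. Monocytes leave the bone marrow in response to ligands of Ccr2, and a patrolling subset carries Cx3cr1, the receptor of fractalkine. In tissue that forms new vessels, these cells gather around the vessels, clear debris and take up lipid and immune complexes, and they bear scavenger, lectin and Fc receptors for those tasks.

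The study used female athymic nude mice (Crl:NU(NCr)-Foxn1nu), which lack a normal thymus and so have few mature T cells. Ad-VEGF-A164, an adenovirus carrying a VEGF-A isoform, was injected into the skin of the flank and, at a lower dose, of the ears, and the flank tissue was profiled. The 10 groups were control tissue at day 0, labelled only as control, and injected tissue at day 5, 20 or 60 that was untreated, given DC101 at 20 mg per kg or given G6 at 10 mg per kg. DC101 is an antibody to mouse VEGF receptor 2, and the labels call both antibodies anti-VEGF receptor antibodies without naming the target of G6. Each group held 8 arrays, except DC101 at day 60 with 6, which gave 78 arrays. The labels give no group injected with an empty adenovirus, so the vector and its VEGF-A164 cargo cannot be told apart in any comparison with control. Which animal each array came from is not labelled, and the design text states only that each group had at least 5 animals. Some arrays may therefore share an animal, and p-values over arrays may be too small. They also do not say whether the day marks the start of treatment or the harvest.

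Levels are given as log2(signal + 16), where the signal is the array's linear intensity for the probe set. A difference of 1 on that scale is a 2-fold change for a bright probe set and understates the change of a dim one. A gene was called when its Benjamini-Hochberg adjusted p, over all 14718 genes in the limma fit of all 10 groups, was below 0.05. The filter level of 331 signal units corresponds to 8.44 on the log2 scale, and a group whose arrays all lie under it gives only a bound. In bulk tissue, fewer cells of a type and less RNA per cell cannot be told apart. The flank samples carried transcripts of both skin and muscle: all 9 epidermal and all 9 skeletal muscle markers were above the filter level on at least 1 array. Among markers of other leukocytes, Cd2 of T cells and Epx, Prg2, Prg3, Il5ra and Ccr3 of eosinophils were never above that level. The median ratio of the 3′ to the 5′ Actb probe sets, a measure of RNA integrity, ran from 1.29 in DC101 day 5 tissue to 2.21 in G6 day 60 tissue.

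Injected, untreated tissue at day 5 held far more of these transcripts than control tissue. Of the 37 genes, 33 rose, none fell and 4 did not pass the test, with a median difference of 1.81, beside 0.05 over all genes tested. Over all genes, 27.9% were called higher and 24.9% lower in that comparison. Every array of the untreated day 5 group lay above every control array for 24 of the members, against 12.9% of all genes. The mean level of the 37 genes was 11.41 ± 0.50 (SD, n = 8) in control tissue and 13.22 ± 0.11 (SD, n = 8) at day 5. The control arrays were the less uniform of the pair, from 10.91 to 12.39 with a median of 11.28, and their highest array was array 95. The day 5 arrays ran from 13.03 to 13.34.

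**Figure D1:**
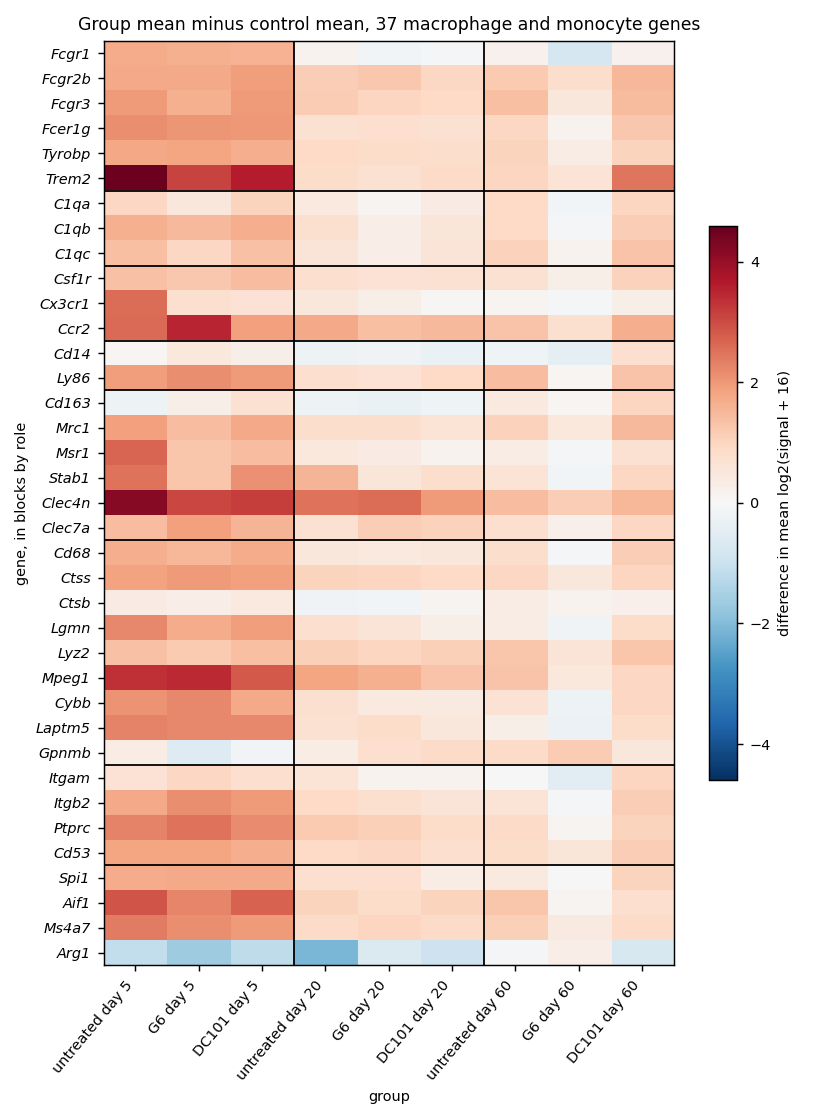
Difference of each group's mean from the control mean for the 37 genes, on the log2(signal + 16) scale; rows are genes in blocks by role, columns are the 9 injected groups by day, and red is above control. The day 5 columns are red for most rows in all 3 groups, Trem2 and Clec4n are darkest in untreated day 5 tissue, and Arg1 is blue in all groups at day 5 and day 20.

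The Fc receptors, the adaptors with an immunoreceptor activation motif and Trem2, which signals through such an adaptor, made up 6 members, and all 6 rose at day 5. Trem2, a receptor for lipids and apolipoproteins on phagocytes, had levels from 6.07 to 6.95 in control tissue, with a median of 6.36. At day 5 its levels ran from 10.72 to 11.54, with a median of 10.97. Every control array was under the filter level and every day 5 array was above it, so the change was at least 5.83-fold (fitted log2 difference 4.52, SE 0.42, adjusted p = 2.7e-14). Tyrobp, the adaptor through which Trem2 signals, rose by 1.78 (SE 0.25, adjusted p = 7.2e-09). Fcer1g, the shared signalling chain of activating Fc receptors, rose by 2.15, and the receptors Fcgr3, Fcgr2b and Fcgr1 rose by 1.95, 1.74 and 1.72. The inhibitory receptor Fcgr2b was thus among the members that rose, beside the activating Fcgr1 and Fcgr3.

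The scavenger and lectin receptors covered the widest range. Clec4n, the fungal-wall receptor dectin-2, had levels of 8.81 to 9.67 in control tissue with a median of 9.27, and of 13.23 to 13.56 at day 5 with a median of 13.43. The groups were far apart, and the difference was 18.1-fold (log2 4.18, SE 0.38, adjusted p = 7.2e-15). Msr1, a receptor for modified lipoproteins, rose 6.38-fold, and Stab1, a scavenger receptor of alternatively activated macrophages that sinusoidal and lymphatic endothelium also carries, rose 5.69-fold. Mrc1, the mannose receptor, rose by 1.87 and Clec7a, the beta-glucan receptor dectin-1, by 1.43. Cd163, the haptoglobin-haemoglobin receptor of resident macrophages, did not pass the test. Its levels ran from 11.78 to 13.77 in control tissue and from 11.72 to 13.02 at day 5, so the ranges overlapped (difference -0.23, 95% interval -0.81 to 0.34, adjusted p = 0.52).

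Receptors for growth factors and chemokines all rose. Cx3cr1 had levels of 8.89 to 9.61 in control tissue and of 11.31 to 12.20 at day 5, with medians of 9.17 and 11.80. No array of one group reached the other, and the difference was 5.94-fold (log2 2.57, SE 0.22, adjusted p = 4.2e-16). Ccr2 rose 6.16-fold from its brightest probe set. Its 3 other probe sets gave smaller differences of 0.60, 1.13 and 0.91, all called, so the size of the Ccr2 change depended on the probe set. Csf1r, the receptor of the macrophage growth factor Csf1, rose by 1.34 (SE 0.16, adjusted p = 8.8e-11), from a median of 13.90 to one of 15.38.

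Among lysosomal, protease and killing genes, 8 of 9 rose. Mpeg1, which encodes the pore-forming protein perforin-2, had levels of 10.24 to 11.55 in control tissue and of 13.81 to 14.17 at day 5. These ranges were separate, and the difference was 10.4-fold (log2 3.38, SE 0.24, adjusted p = 2.0e-19). The endosomal proteases Lgmn and Ctss rose by 2.21 and 1.85, and the lysosomal membrane proteins Laptm5 and Cd68 by 2.27 and 1.68. Cybb, the membrane subunit of the phagocyte oxidase, rose by 2.05 and Lyz2, lysozyme of myeloid cells, by 1.35. Lyz2 has a close paralog in Lyz1, and cross-reading by its probe set was not tested. Ctsb, a cathepsin made by many cell types, rose by only 0.38 (SE 0.10, adjusted p = 0.0012). Gpnmb, a lysosomal glycoprotein that melanocytes also make, did not pass the test (difference 0.34, adjusted p = 0.39).

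The remaining roles held few exceptions. The complement genes C1qa, C1qb and C1qc, which encode the chains of C1q, rose by 0.96, 1.64 and 1.40. The integrins Itgb2 and Itgam rose by 1.76 and 0.66, the leukocyte phosphatase Ptprc by 2.27 and the tetraspanin Cd53 by 1.81. Itgam, the alpha chain of Mac-1, was close to the threshold (adjusted p = 0.043), and leaving out 1 array in turn moved its adjusted p between 0.009 and 0.12, the highest without untreated array 7; the call was kept in 6 of 16 such fits. Spi1, which encodes the myeloid transcription factor PU.1, rose by 1.72, Aif1, which encodes the actin-binding protein Iba1, by 2.89 and the membrane protein Ms4a7 by 2.39. Ly86, the partner of a toll-like receptor homologue, rose by 1.93. Cd14, the co-receptor for endotoxin, did not pass the test: its levels ran from 10.92 to 12.72 in control tissue and from 11.63 to 12.13 at day 5. Arg1, the arginine-degrading enzyme of alternatively activated macrophages that keratinocytes also make, had a difference of -1.12 (SE 0.59, adjusted p = 0.10).

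Other genes of the same biology moved in the same comparison, in lists chosen with earlier results of these data known. Of 21 tested signals for monocyte growth and recruitment, 17 were higher and 1 lower, with a median difference of 1.41, and among them the chemokine Ccl2 had a difference of 3.84. The chemokine Ccl3 was under the filter level on every control array and was at least 1.51-fold higher. Of 21 tested genes of myeloid transcription and signalling, 17 were higher and 1 lower. For genes of the oxidase and lysosome, 14 of 19 were higher and none lower, led by the oxidase subunits Ncf1 and Cyba at 1.86 and 1.82. Inflammatory macrophage genes were higher in 13 of 21 cases, with a difference of 3.34 for Saa3, and lipid-handling genes were higher in 8 of 14 and lower in 1. Il6 and the elastase Mmp12 were also under the filter level on every control array, and were at least 2.52-fold and 2.80-fold higher. Resident and alternatively activated macrophage genes were mixed, at 10 higher and 3 lower of 22: Retnla had a difference of -2.77, and Chil3, under the filter level on every control array, was at least 1.68-fold higher.

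Markers of other cells also changed, in both directions, where 27.9% of all genes were higher and 24.9% lower. Of 12 tested neutrophil markers 8 were higher and 1 lower, of 12 dendritic and Langerhans cell markers 9 were higher, and of 9 T and NK cell markers 5 were higher. Among B cell markers 2 of 5 were higher and 1 lower, among mast cell markers 3 of 10 were higher, and the 1 eosinophil marker tested was not called. The summed signal of the dendritic list ran from 20518 to 69332 in control tissue and from 73630 to 116216 at day 5. That of the neutrophil list ran from 7212 to 14444 and from 14392 to 87575. Endothelial markers were higher in 11 of 12 cases, cell cycle genes in 11 of 11 and epidermal markers in 5 of 9. Muscle markers were lower in 8 of 9, adipocyte markers in 6 of 7, and fibroblast markers in 6 of 9 with 2 higher. The part of these cells in the members' difference was not tested. Several members, among them Ptprc, Itgam, Itgb2, Cd53, Fcer1g and Tyrobp, are also expressed by neutrophils and other leukocytes.

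**Figure D2:**
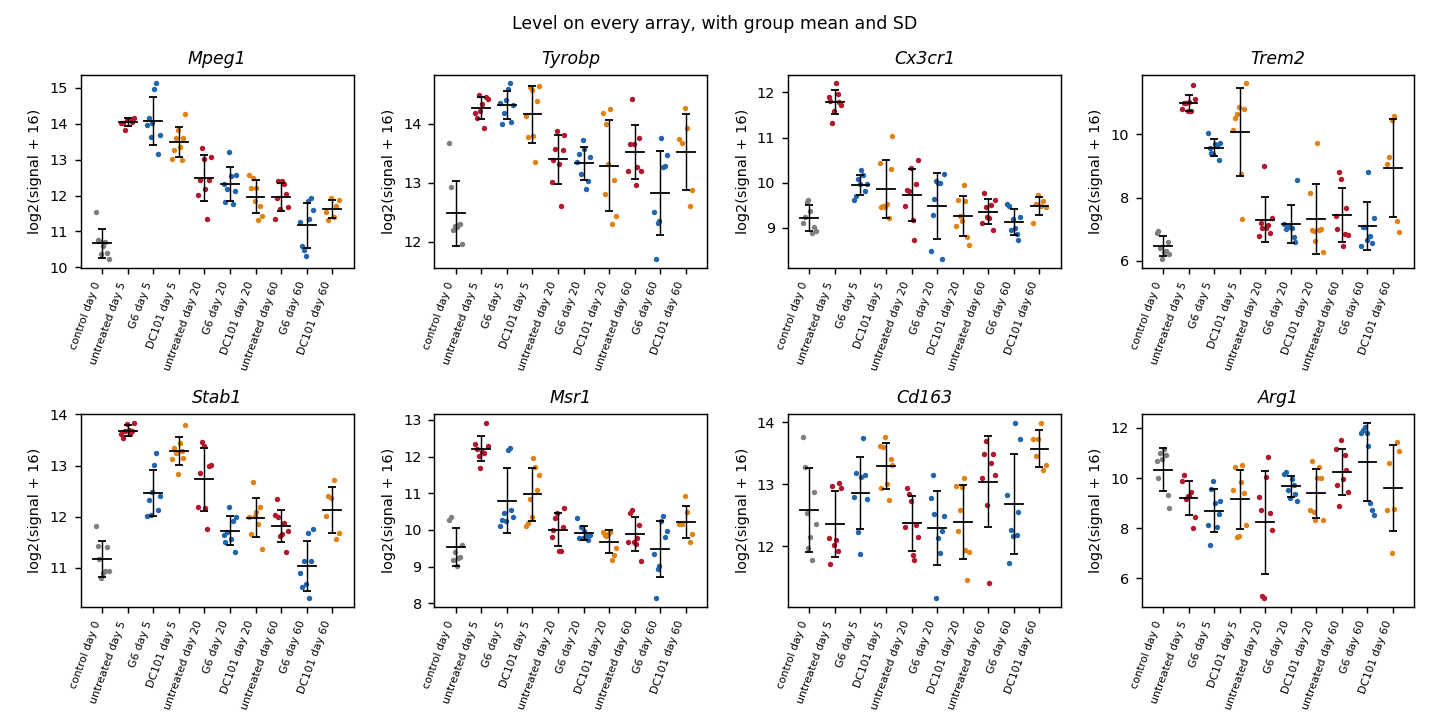
Level of 8 members on every array, as log2(signal + 16) on the vertical axis, in the 10 groups; points are arrays, the horizontal line is the group mean and the bar its SD. Mpeg1, Tyrobp, Trem2 and Stab1 are highest at day 5, Cx3cr1 is separately high in untreated day 5 tissue alone, and Cd163 and Arg1 follow neither course.

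The transcripts had largely receded by day 20. Against untreated day 5 tissue, 28 of the 37 genes were lower in untreated day 20 tissue and none was higher, with a median difference of -0.95 beside 0.01 over all genes. Background shares were 9.78% lower and 10.4% higher. For 26 members every day 20 array lay below every day 5 array, against 4.08% of all genes. Trem2 was lower (adjusted p = 7.5e-10), and 7 of its 8 day 20 arrays were under the filter level, the exception being array 52 at 9.002. Its fitted log2 difference of -3.68 (SE 0.42) therefore rests mostly on values at background and is not given as a fold. Msr1, Cx3cr1 and Aif1 were lower by differences of -2.20, -2.06 and -1.87. Cd163, Cd14, Ccr2, Itgam, Arg1, Fcgr2b, C1qa, Lyz2 and Gpnmb did not pass.

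Untreated tissue nevertheless stayed above control at day 20. Of the 37 genes 24 were higher and 1 was lower, with a median difference of 0.77, while 22.7% of all genes were higher and 18.4% lower. Clec4n kept the largest difference: its day 20 arrays ran from 10.21 to 12.44 with a median of 11.76, all above the control maximum of 9.67 (log2 difference 2.49, adjusted p = 1.8e-07). Mpeg1, Ccr2 and Stab1 followed at 1.81, 1.75 and 1.55. Arg1 was the member that was lower (difference -2.09, SE 0.59, adjusted p = 0.0027), with levels from 5.22 to 10.86 on the day 20 arrays. That spread was the widest of Arg1 in any group and overlapped the control range of 8.80 to 11.14.

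At day 60 the untreated tissue again stood above control, with 27 members higher and none lower and a median difference of 0.87. In that comparison 18.7% of all genes were higher and 16.9% lower. With the 3′ to 5′ ratios of Actb and Gapdh as covariates, 20 members were called. Calls over all genes then went from 5241 to 2358. Clec4n, Ly86 and Fcgr3 led with differences of 1.42, 1.41 and 1.40. Between day 20 and day 60, 2 members rose and 2 fell, where 11.9% of all genes rose and 13.7% fell. Ctsb rose by 0.50 (SE 0.10, adjusted p = 0.00013), with arrays of 15.22 to 15.63 at day 20 and 15.74 to 16.06 at day 60, which did not overlap. Arg1 rose by 2.00. Stab1 fell from 12.73 ± 0.62 to 11.82 ± 0.31 (SD, n = 8 each; adjusted p = 0.00024), and Clec4n fell by 1.07 (adjusted p = 0.029, and 0.11 from its other probe set).

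Most of the 37 genes moved as a block across the 78 arrays. As a description, the Pearson correlation of each gene with the mean of the other 36 had a median of 0.89, and 27 genes were above 0.8. Fcer1g and Tyrobp were highest at 0.97 and 0.96. When group means were removed, the median within groups was 0.83, so the genes also varied together among arrays of 1 group. The points share array hybridisation and signal scale. Cx3cr1 stood out there: its correlation was 0.62 over all arrays but 0.23 within groups, next to 0.23 for Ctsb. Cd163 and Cd14 had 0.39 and 0.59 over all arrays and 0.65 and 0.70 within groups. Gpnmb and Arg1 ran against the block, each at -0.50 over all arrays, and at -0.51 and -0.48 within groups. The highest group mean fell in untreated day 5 tissue for 13 members, in G6 day 5 tissue for 10, in DC101 day 5 tissue for 9, in DC101 day 60 tissue for 3 and in G6 day 60 tissue for 2. Cd14, Cd163 and Itgam were highest in DC101 day 60 tissue, and Gpnmb and Arg1 in G6 day 60 tissue.

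The non-members most alike, by the same correlation with the mean of all members over 78 arrays, were Ncf1 at 0.97, Rac2 and Nckap1l at 0.96, Lpxn, C3ar1, P2ry6 and Clec4a3 at 0.96, Sash3 and Alox5ap at 0.95 and Ptpn18 at 0.95. Ncf1 encodes a cytosolic subunit of the oxidase whose membrane subunit is Cybb, and Rac2 is a haematopoietic GTPase of the same enzyme. C3ar1 is the receptor of the complement fragment C3a.

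Because the members moved together and Spi1 was among them, their promoters were searched for the core letters bound by PU.1, GAGGAA or its reverse complement TTCCTC. The windows ran from 250 bases before to 50 bases after the transcript start and came from RefSeq on build GRCm38.p6. The table held 32 windows for 27 of the 37 members. The letters occurred in 19 of the 32 windows, 59.4%, and in 28.3% of all 32851 windows. By gene, 17 of 27 members and 31.3% of all genes had a window with them. The longer form GAGGAAGT or ACTTCCTC, which contains the core, occurred in 3 member windows, 9.38%, against 3.20% of all windows. Those windows, of Cd53, Ctss and C1qc, are shown with the core letters in capitals, and the window of Cx3cr1, which holds none, is shown because that gene varied apart from the block within groups. A window without the letters was not particular to such genes. That of Fcer1g, the member most alike to the others, also holds none, and that of Itgam, among the least alike, holds 3 matches. A match is a description of letters and not a binding site, and no binding was measured.
Cd53 (chr3:106790100-106790399, minus strand): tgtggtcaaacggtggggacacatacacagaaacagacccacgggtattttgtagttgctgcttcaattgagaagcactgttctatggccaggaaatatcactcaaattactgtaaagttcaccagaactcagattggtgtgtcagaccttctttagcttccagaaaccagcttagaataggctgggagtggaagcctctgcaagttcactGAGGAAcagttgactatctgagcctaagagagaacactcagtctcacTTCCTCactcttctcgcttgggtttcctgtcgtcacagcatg
Ctss (chr3:95526536-95526835, plus strand): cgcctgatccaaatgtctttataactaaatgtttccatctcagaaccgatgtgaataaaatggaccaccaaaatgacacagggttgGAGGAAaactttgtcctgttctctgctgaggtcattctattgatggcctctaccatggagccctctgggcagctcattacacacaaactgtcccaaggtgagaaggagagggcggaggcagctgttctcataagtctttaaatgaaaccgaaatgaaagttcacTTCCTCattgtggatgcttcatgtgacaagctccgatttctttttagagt
C1qc (chr4:136892865-136893164, minus strand): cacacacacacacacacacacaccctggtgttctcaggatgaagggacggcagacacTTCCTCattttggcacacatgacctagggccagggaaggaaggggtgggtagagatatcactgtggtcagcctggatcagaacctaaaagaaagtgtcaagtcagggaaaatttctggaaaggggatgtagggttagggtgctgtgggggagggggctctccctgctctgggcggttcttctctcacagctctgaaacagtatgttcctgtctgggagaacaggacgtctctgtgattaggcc
Cx3cr1 (chr9:120068247-120068546, minus strand): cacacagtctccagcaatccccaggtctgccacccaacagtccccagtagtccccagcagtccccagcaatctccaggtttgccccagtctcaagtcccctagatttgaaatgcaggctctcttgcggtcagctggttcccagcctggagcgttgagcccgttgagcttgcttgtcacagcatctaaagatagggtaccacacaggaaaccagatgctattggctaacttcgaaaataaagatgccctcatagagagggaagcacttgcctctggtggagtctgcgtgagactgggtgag
Each sequence is written 5′ to 3′ in the direction of transcription. Among the 10 members with a window that were most alike to the others, 8 had the core letters, and among the 10 least alike, 5 did.

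The antibody groups show the early myeloid transcripts under treatment with DC101 or with G6, whose target the labels do not name. At day 5 these stood above control in both groups. Against control, 32 members were higher and 1 lower in G6 day 5 tissue, with a median difference of 1.69, where 22.2% of all genes were higher and 18.9% lower. In DC101 day 5 tissue 34 were higher and none lower, with a median of 1.73, where 23.3% of all genes were higher and 22.6% lower. These comparisons share their 8 control arrays. The mean level of the 37 genes was 12.98 ± 0.28 with G6 and 13.02 ± 0.26 with DC101 (SD, n = 8 each), beside 13.22 ± 0.11 in untreated tissue.

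Against untreated day 5 tissue, G6 was followed by 7 members lower and 1 higher. Leaving out 1 array in turn gave 6 or 7 calls in place of these 8. Over all genes 15% were lower and 16.7% higher, so the members' share of lower genes was near the background. With DC101, 2 members were lower and 1 higher, against 7.11% and 4.66% of all genes. The members' median differences were -0.09 and -0.06.

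Cx3cr1 was lower with both antibodies. Its arrays ran from 11.31 to 12.20 in untreated tissue, from 9.62 to 10.27 with G6 and from 9.22 to 11.02 with DC101, with medians of 11.80, 9.97 and 9.50. No array of either antibody group reached the lowest untreated array. The difference was -1.84 with G6 (SE 0.22, 3.58-fold lower, adjusted p = 4.9e-10) and -1.92 with DC101 (SE 0.22, 3.79-fold lower, adjusted p = 8.1e-10). G6 minus DC101 was 0.08 with a 95% interval of -0.35 to 0.51, so the comparison bounds the gap between them but does not show that they act alike. Both antibody groups were still above control, by 0.73 and 0.65, and both calls against untreated tissue held when each array was left out in turn. Those 2 calls share the 8 untreated arrays. Of the 2 probe sets of Cx3cr1, and likewise of Trem2, only 1 passed the filter on low values, so no second probe set was compared.

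**Figure D3:**
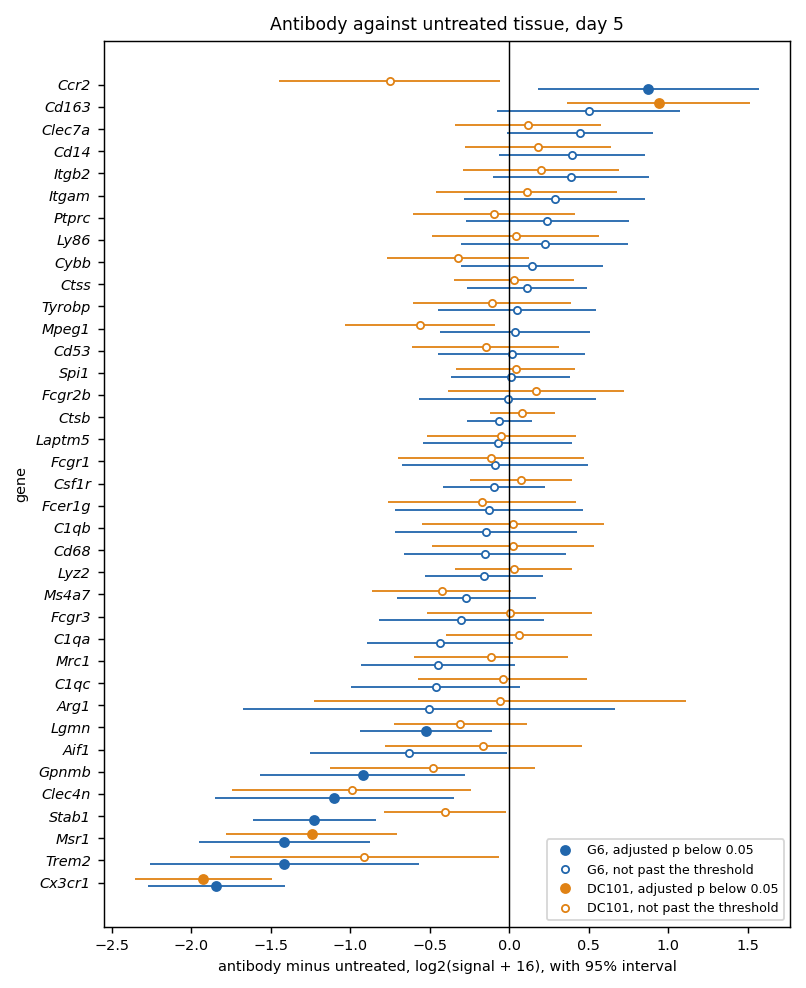
Difference between antibody-treated and untreated tissue at day 5 for each member, on the log2(signal + 16) scale with 95% intervals; blue is G6, orange is DC101, and filled points passed the threshold. Cx3cr1 and Msr1 lie to the left for both antibodies, and Stab1, Trem2, Clec4n, Gpnmb and Lgmn are filled for G6 alone.

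Msr1 was also lower with both, at -1.41 for G6 (SE 0.27, adjusted p = 3.2e-05) and -1.24 for DC101 (SE 0.27, adjusted p = 0.00087). Its G6 arrays ran from 10.12 to 12.25 and its DC101 arrays from 10.11 to 11.96, and both overlapped the untreated range of 11.70 to 12.92. The 3 other Msr1 probe sets differed: for DC101 they gave -0.41, -1.29 and 0.22, none of them called, and for G6 -1.05 and -1.91, both called, and -0.24, not called.

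Stab1 separated the antibodies. Its levels were 13.55 to 13.84 in untreated tissue, 12.02 to 13.25 with G6 and 12.84 to 13.79 with DC101. All 8 G6 arrays were below every untreated array, while the DC101 arrays overlapped. The difference was -1.22 with G6 (SE 0.19, adjusted p = 9.5e-07) and -0.40 with DC101 (SE 0.19, adjusted p = 0.17). Set directly against DC101, G6 tissue was lower by a difference of -0.82 (adjusted p = 0.0021). Endothelial markers, which share Stab1 with macrophages, were lower with G6 in 11 of 12 cases against untreated tissue and in 11 of 12 against DC101 tissue, and in none with DC101 against untreated tissue. Their summed signal ran from 111382 to 160499 in untreated tissue, from 28338 to 62195 with G6 and from 83328 to 132685 with DC101. The part of endothelium in the Stab1 difference was not tested.

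Trem2, Clec4n, Gpnmb and Lgmn made up the rest of the G6 calls. Trem2 ran from 10.72 to 11.54 in untreated tissue and from 9.18 to 10.04 with G6, which did not overlap (difference -1.41, SE 0.42, adjusted p = 0.0073). With DC101 it ran from 7.32 to 11.60, the widest range of the 3 groups, and the difference of -0.91 did not pass (adjusted p = 0.15). Clec4n fell by 1.10, Gpnmb by 0.92 and Lgmn by 0.52 (adjusted p = 0.020, 0.022 and 0.047). The Lgmn call was kept in 3 of 16 fits that left out 1 array, with an adjusted p of 0.10 without G6 array 10, and the Clec4n value from its other probe set had an adjusted p of 0.059.

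Ccr2 and Cd163 were the members called higher. The brightest Ccr2 probe set ran from 12.49 to 13.18 in untreated tissue, from 13.11 to 14.64 with G6 and from 10.20 to 12.95 with DC101. G6 was higher than untreated tissue by 0.88 (adjusted p = 0.047, and 0.11 without G6 array 14) and higher than DC101 by 1.63 (SE 0.35, adjusted p = 0.00073), the latter with no overlap. The other Ccr2 probe sets did not share this. They gave 0.27, -0.35 and 0.08 for G6 against untreated tissue, and 0.36, -0.81 and 0.26 for G6 against DC101, of which -0.81 was called in the opposite direction (adjusted p = 0.033). Cd163 was higher with DC101 (difference 0.94, SE 0.29, adjusted p = 0.022), with arrays of 12.75 to 13.77 against 11.72 to 13.02 in untreated tissue. Its adjusted p was 0.055 without untreated array 2 and 0.068 with the Actb and Gapdh ratios in the fit. In the direct comparison of the antibodies at day 5, Ccr2 and Stab1 were the 2 members called, 1 in each direction, where 5.82% of all genes were higher and 5.65% lower.

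Monocyte growth and recruitment signals at day 5 were lower in 6 of 21 cases with G6, 28.6%, and in 5 with DC101, 23.8%, against 15% and 7.11% of all genes, and 1 was higher with G6. Ccl2 fell by 1.67 with G6 (adjusted p = 0.00015) and had a difference of -0.76 with DC101 (adjusted p = 0.15). Ccl3 fell with both (adjusted p = 0.033 each), to mean levels of 7.56 and 7.35 that are under the filter level. Retnla, made by alternatively activated macrophages, rose with both, by 1.84 and 2.23. Dendritic and Langerhans cell markers were higher in 5 of 12 cases with G6 and lower in 1. Muscle markers were higher in 7 of 9 cases with G6 and in 1 with DC101, and their part in these differences was not tested.

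At day 20 few members were called between antibody-treated and untreated tissue. G6 was followed by 1 member lower and none higher against untreated tissue, where 6.01% of all genes were lower and 3.97% higher. DC101 likewise had 1 lower and none higher, against 5.25% and 2.44%. The gene was Stab1 each time: its arrays ran from 11.76 to 13.46 in untreated tissue, from 11.31 to 12.19 with G6 and from 11.36 to 12.68 with DC101. The ranges overlapped at their ends, and the differences were -1.0 (SE 0.19, adjusted p = 0.00042) and -0.74 (SE 0.19, adjusted p = 0.0099). The latter reached 0.05 without untreated array 51, and the DC101 count then was 0; without untreated array 54 it was 4, and the G6 count 2. Endothelial markers were lower in 10 of 12 cases with G6 and in 6 with DC101 at that day. Between the antibodies limma called no member, and 0.136% of all genes higher and 0.109% lower; at an unadjusted p below 0.05 there were 2 members. Cx3cr1 no longer differed by the test from untreated tissue, at -0.24 with G6 and -0.47 with DC101 (adjusted p = 0.55 and 0.17), and its untreated level had itself dropped to 9.73 ± 0.58 (SD, n = 8).

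That change in the antibody effect was tested as an interaction. The G6 effect on Cx3cr1 at day 20 minus that at day 5 was 1.60 (SE 0.31, adjusted p = 0.00056), and the DC101 effect changed by 1.45 (SE 0.31, adjusted p = 0.0028). Msr1 passed for G6 at 1.32 (SE 0.38, adjusted p = 0.020) and had 0.91 for DC101 (adjusted p = 0.21). These were the only member calls, 2 higher for G6 and 1 for DC101 and none lower. Over all genes the G6 interaction called 4.07% higher and 5.10% lower and the DC101 interaction 0.910% and 0.904%. Stab1 did not pass, with 0.23 for G6 and -0.34 for DC101. With adjacent arrays averaged, the DC101 interaction called no member, so its Cx3cr1 call was lost, and the G6 interaction called 1.

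Against control, 22 members were higher and none lower in G6 day 20 tissue, with a median of 0.74, and 18 higher and none lower in DC101 day 20 tissue, with a median of 0.70. All genes were called higher in 18.7% and 15.2% of cases and lower in 16.3% and 15.1%.

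At day 60 the G6 and DC101 groups differed in these genes. Their Actb 3′ to 5′ ratios differed as well, so antibody and RNA quality cannot be told apart there. With G6, 14 members were lower than in untreated tissue and none was higher, with a median difference of -0.58 beside -0.02 over all genes, of which 9.26% were lower and 2.64% higher. The 3 C1q chains were among them, together with Ly86, Aif1, Fcgr1, Fcgr3, Cybb, Cd68, Mpeg1, Stab1, Ptprc, Ms4a7 and Lyz2. Ly86 had arrays of 12.18 to 13.60 in untreated and 10.09 to 12.66 in G6 tissue, with medians of 12.62 and 11.21. The ranges overlapped, as they did for all 14, and the difference was -1.33 (SE 0.26, adjusted p = 0.00047). C1qa ran from 14.36 to 15.55 and from 13.23 to 15.29 (difference -1.03, SE 0.23, adjusted p = 0.0018). Stab1, at -0.78 (adjusted p = 0.0047, and 0.13 with the RNA ratios in the fit), was thus lower with G6 at each of the 3 days. The count of 14 was 7 without G6 array 82 and 21 without G6 array 88. Resident macrophage genes were lower in 12 of 22 cases and oxidase and lysosome genes in 9 of 19, with none higher in either list.

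With DC101 at day 60, 3 members were higher than in untreated tissue and none lower, against 4.65% and 6.91% of all genes. Cd14 ran from 11.11 to 11.97 in untreated and from 11.63 to 13.33 in DC101 tissue (difference 0.98, SE 0.25, adjusted p = 0.0060). Itgam ran from 7.27 to 9.76 and from 8.69 to 10.86 (difference 1.03, SE 0.31, adjusted p = 0.020). Trem2 ran from 6.48 to 8.80 and from 6.92 to 10.58 (difference 1.47, SE 0.46, adjusted p = 0.025). All 3 ranges overlapped. Trem2 was under the filter level on 6 of 8 untreated and 2 of 6 DC101 arrays, and Itgam on 3 of 8 untreated arrays, so the sizes of these differences are uncertain. With both RNA ratios in the fit none of the 3 passed: the differences were 0.66 for Cd14, 0.42 for Itgam and 1.24 for Trem2 (adjusted p = 0.28, 0.67 and 0.28). The adjusted p of Itgam was 0.11 without DC101 array 91 and that of Trem2 was 0.13 without DC101 array 92. The count of 3 was 1 without array 91 and 5 without DC101 array 93.

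Set against each other, the antibodies gave 27 of 37 members lower with G6 than with DC101 and none higher, with a median difference of -0.93 beside -0.01 over all genes. All genes were lower in 21.9% and higher in 18.6% of cases. Trem2 and Itgam had fitted differences of -1.82 (SE 0.46, adjusted p = 0.0011) and -1.47 (SE 0.31, adjusted p = 0.00012). With G6, 7 of 8 arrays were under the filter level for Trem2 and 5 of 8 for Itgam, so the sizes of both differences are uncertain. Itgam ran from 7.09 to 9.06 with G6 and from 8.69 to 10.86 with DC101, a small overlap. Spi1 ran from 8.56 to 10.32 and from 9.81 to 10.98 (difference -1.04, SE 0.20, adjusted p = 4.5e-05), and Stab1 from 10.41 to 11.77 and from 11.56 to 12.71 (difference -1.08, SE 0.21, adjusted p = 4.0e-05). The ranges of all 27 genes overlapped. Members not called included Cx3cr1, at -0.36 (adjusted p = 0.22).

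RNA quality and other tissue moved with that contrast. The Actb 3′ to 5′ ratio ran from 1.81 to 3.03 in G6 day 60 tissue and from 1.17 to 1.56 in DC101 day 60 tissue, with medians of 2.21 and 1.3, which did not overlap. In untreated day 60 tissue it ran from 1.58 to 2.57. With both RNA ratios, of Actb and of Gapdh, as covariates, the 27 calls became 0 and those over all genes went from 5955 to 0. The members' median difference moved from -0.93 to -0.80 and its typical SE from 0.27 to 0.39. The 14 calls of G6 against untreated tissue also became 0, with a median of -0.60. The Actb ratios do not overlap between G6 and DC101, or between DC101 and untreated tissue. RNA quality and antibody therefore cannot be told apart at day 60. The control ratios, from 1.21 to 1.5, also lay below all those of untreated and G6 day 60 tissue. Skeletal muscle markers were lower with G6 than with DC101 in 9 of 9 cases, fibroblast markers in 7 of 9 and endothelial markers in 9 of 12. Epidermal markers were higher in 6 of 9 and cell cycle genes in 11 of 11. The summed muscle signal ran from 34721 to 826205 with G6 and from 512765 to 787099 with DC101, and the epidermal signal from 156608 to 398004 and from 45172 to 265478. Their part in the members' difference was not tested.

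**Figure D4:**
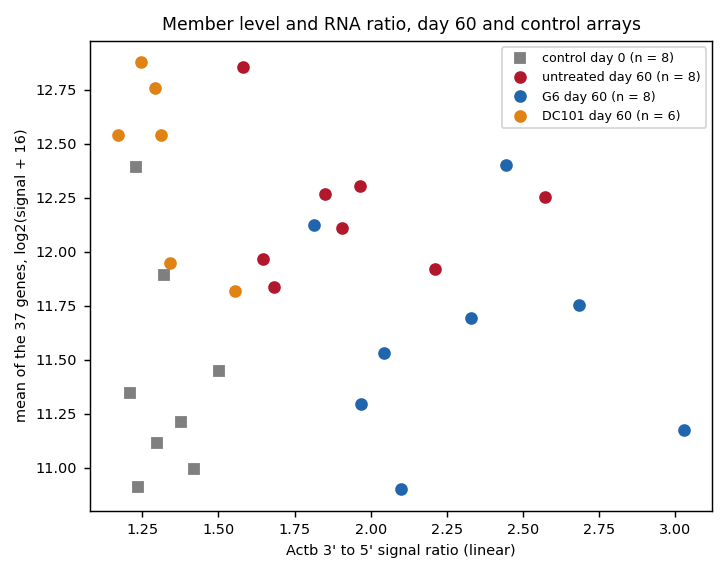
Mean level of the 37 genes, as log2(signal + 16), against the Actb 3′ to 5′ signal ratio for each control array and each day 60 array; colours mark the groups. The G6 arrays lie at ratios from 1.81 to 3.03 and the DC101 arrays from 1.17 to 1.56. In mean level the DC101 arrays run from 11.82 to 12.88, the control arrays from 10.91 to 12.39 and the G6 arrays from 10.90 to 12.40, so all of these overlap.

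Other macrophage lists were compared in the same way at day 60. With G6 against DC101, 21.9% of all genes were lower and 18.6% higher. Resident macrophage genes were lower with G6 than with DC101 in 15 of 22 cases, myeloid transcription and signalling genes in 11 of 21, monocyte signals in 10 of 21 and oxidase and lysosome genes in 10 of 19 with 1 higher. Inflammatory genes were called in both directions, 3 higher and 4 lower of 21, and lipid-handling genes likewise, 3 and 3 of 14. Within these lists Cyba had -1.30 and Ncf1 -0.88, both called. With both RNA ratios as covariates no gene was called in this comparison.

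Relative to control, G6 day 60 tissue had 6 members higher and 1 lower, where 23.8% of all genes were higher and 24.9% lower, so the members' share of higher genes was below the background. Gpnmb led at 1.18 (SE 0.32, adjusted p = 0.0018) and Fcgr1 was the lower gene, at -0.77 (adjusted p = 0.024). The 7 calls were 4 without G6 array 86 and 12 without control array 95. In DC101 day 60 tissue 30 members were higher and none lower, against 11.5% and 10.7% of all genes. Trem2 had at least a 1.40-fold change there (fitted difference 2.46, SE 0.46, adjusted p = 9.4e-05), and Cd163 and Cd14, not called in untreated tissue at any day, were higher by 0.99 and 0.77.

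The change of the DC101 effect from day 20 to day 60 was called for 6 members, 5 upward and 1 downward, where 8.90% of all genes were called upward and 9.29% downward. Itgam, Stab1, Cd14, Lgmn and Spi1 changed by 1.52, 1.05, 1.02, 1.0 and 0.99 (SE 0.42, 0.29, 0.34, 0.31 and 0.28). Ctsb changed by -0.41 (SE 0.15, adjusted p = 0.049). With the RNA ratios as covariates 1 of the 6 calls was left. For G6 the same change was called for no member at an adjusted p below 0.05 and for 9 at an unadjusted p below 0.05, while 0.0611% of all genes were called upward and 0.0136% downward.

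**Figure D5:**
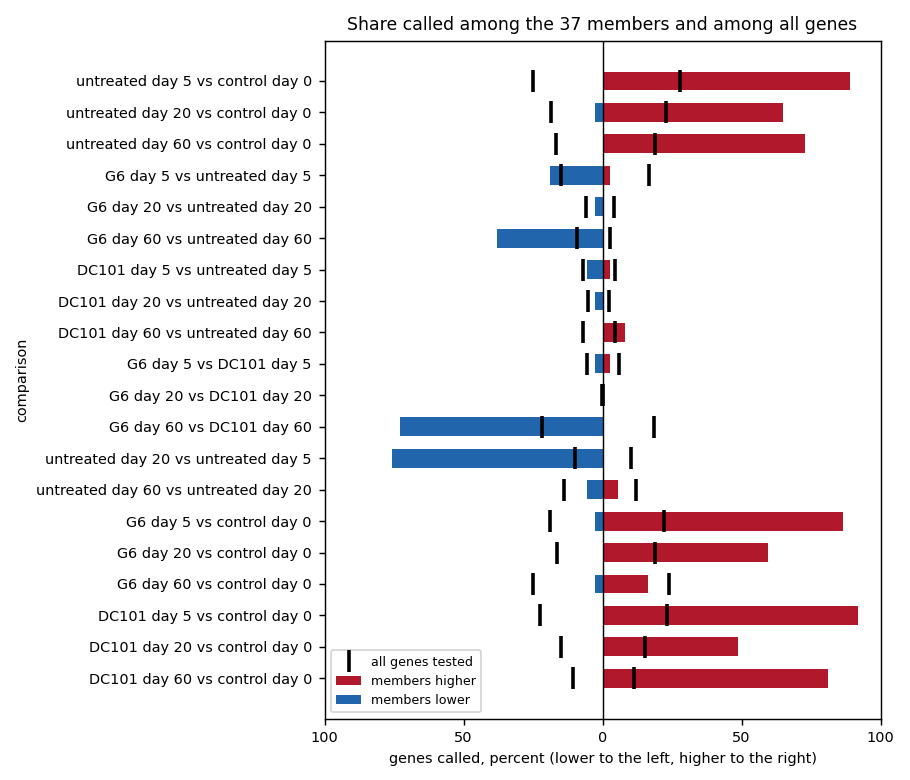
Share of the 37 members called higher (red, to the right) and lower (blue, to the left) in each of the 20 comparisons, in percent; the black marks give the same share among all 14718 genes tested. Members exceed the marks upward in all comparisons with control except G6 at day 60, and downward most in untreated day 20 against day 5 tissue and in G6 against DC101 tissue at day 60.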

How the data were processed

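Flank tissue RNA was hybridised to 78 Affymetrix whole-genome mouse arrays. The deposited values are linear MAS5 signal intensities made with GCOS 1.3, per the submitters' processing notes; the scaling target is not given in the sources used here. Groups were taken from the sample labels. Of 45101 probe sets, 34958 had 1 gene symbol in the platform annotation, 932 had several and 9211 none. Those with 1 symbol were kept when the intensity exceeded 331, the 40th percentile, on at least 6 arrays, and the brightest stood for its gene. Of the 37 chosen probe sets, 4 are of the s_at kind (Trem2, Clec4n, Aif1 and Fcgr2b) and 2 of the x_at kind (C1qb and Laptm5). Both kinds can read more than 1 transcript, and cross-reading was not tested. Levels were log2(intensity + 16). One linear model with all 10 groups was fitted with limma 3.58.1 (R 4.3.3; eBayes with trend), and p-values were Benjamini-Hochberg adjusted over 14718 genes at 0.05. There were 20 comparisons and 4 interactions. The fit was tested on simulated data. Members, gene lists and tests were chosen with earlier results of these data known. All members were named; in each other list, the genes named were the 2 with the largest change past the threshold between untreated day 5 and control tissue, and the 10 most alike non-members were named. No paired analysis was possible because the arrays' running numbers are unique and no number is shared between groups. The number of arrays limits the precision. Alternatives covered the pseudocount, filter, normalization, probe sets, array weights, samples in the fit, RNA ratio covariates, adjacent arrays averaged and arrays left out.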

Additional observations from a re-analysis of the deposited data

Results flagged for a closer look

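Of 380 tests for an array far from the rest of its group, 13 found such an array, where chance gives about 1 in 20. Control array 95 was the highest of its group for Mpeg1, at a level of 11.55. In untreated day 5 tissue, array 3 was the lowest for Mpeg1 at 13.81 and the highest for Spi1 at 11.45. Trem2 had 1 high array in each of 3 groups that were otherwise near or under the filter level: untreated day 20 array 52 at 9.002, G6 day 20 array 64 at 8.55 and G6 day 60 array 85 at 8.82. Untreated day 60 array 77 was the lowest for both Cd163, at 11.41, and C1qa, at 14.36, while array 75 of that group had the highest mean level of the 37 genes, at 12.85. Clec4n was lowest on untreated day 20 array 54 at 10.21, Itgam on G6 day 5 array 10 at 8.82, Itgb2 on G6 day 20 array 62 at 10.65 and Laptm5 on DC101 day 5 array 23 at 12.89.

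The antibody effect differed between days, by the limma interaction term, in 9 cases. For Cx3cr1 the effect at day 20 minus that at day 5 was 1.60 with G6 and 1.45 with DC101, and for Msr1 it was 1.32 with G6. The DC101 effect at day 60 minus that at day 20 was 1.52 for Itgam, 1.05 for Stab1, 1.02 for Cd14, 1.0 for Lgmn, 0.99 for Spi1 and -0.41 for Ctsb. Untreated arrays enter both sides of these differences.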

How the results depend on the processing

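Values here are counts of the 37 members called. Pseudocounts of 1 and 64, no filter, quantile normalization and leaving out G6 day 5 arrays 13 and 14 moved none of the 24 counts by over 1.5 times. With both RNA ratios as covariates, G6 against untreated, control and DC101 tissue at day 60 and DC101 against untreated tissue at day 60 each gave 0, and the DC101 effect from day 20 to 60 gave 1. With adjacent arrays averaged, DC101 against untreated tissue gave 0 at day 20 and 0 at day 60, both DC101 interactions 0, G6 against untreated tissue 4 at day 5 and 5 at day 60, G6 day 60 against control 3, the G6 effect from day 5 to 20 gave 1 and untreated day 60 against day 20 gave 2. Array weights gave 6, 2 and 10 for DC101 against untreated tissue at days 5, 20 and 60, 24 for G6 at day 60, 7 and 2 for the G6 interactions, 4 and 10 for those of DC101 and 7 for untreated day 60 against day 20. Fitting only the groups compared gave 14, 0 and 3 for G6 against untreated tissue at days 5, 20 and 60, 6, 0 and 1 for DC101, 11 for DC101 day 20 and 2 for G6 day 60 against control, and 6 for the G6 effect from day 5 to 20. A change of at least 2-fold was met by 11 and 12 members in untreated day 20 and day 60 tissue against control, 16 at day 20 against day 5, 2 at day 60 against day 20, 5, 0 and 3 for G6 against untreated tissue at days 5, 20 and 60, and 0 for DC101 at day 20. It was met by 1 and 15 for G6 against DC101 at days 5 and 60, 7 and 2 for G6 against control at days 20 and 60, 6 and 18 for DC101 against control at those days, and 3 for the DC101 effect from day 20 to 60. Averaging all probe sets of each gene gave 1 for G6 against DC101 at day 5. Without untreated arrays 51 and 52, DC101 day 20 against untreated gave 0, untreated day 60 against day 20 gave 2 and the DC101 effect from day 20 to 60 gave 3; without untreated arrays 77 and 79, DC101 at day 60 gave 1. Leaving out each array in turn, an alternative chosen after seeing the data, gave 1 to 2 for G6 at day 20, 7 to 21 for G6 at day 60, 0 to 4 for DC101 at day 20 and 1 to 5 for DC101 at day 60 against untreated tissue, and 4 to 12 for G6 day 60 against control. For untreated day 5 against control the range was 32 to 33, and for day 20 against day 5 it was 26 to 29.

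Other probe sets of the same gene turned a difference 11 times. Against untreated tissue these were Ccr2 with G6 at day 5 (-0.35), Msr1 with DC101 at day 5 (0.22), Fcgr1 with G6 at day 60 (0.084), and Ctsb and Ptprc with DC101 at day 60 (0.76 and -0.99). For G6 against DC101 they were Cybb and Ccr2 at day 5 (-0.58 and -0.81) and Fcgr1, Ptprc and Laptm5 at day 60 (0.073, 0.20 and 0.56), and for untreated day 20 tissue against control Laptm5 (-0.95). The causes were not tested. Trem2 was under the filter level on all 8 control arrays, which limits its change to a bound.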
